A study of Mus musculus with 6 samples.

Results

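The genes examined were 8 bromodomain genes of the mouse, Brd1, Brd2, Brd3, Brd7, Brd8, Brd9, Brpf1 and Brpf3, taken by symbol from the 55471 genes of a hippocampal RNA-seq table; each matched 1 identifier. The authors sequenced hippocampal RNA of 3 p300-ifKO mice and 3 control littermates, with 1 mouse per library. All mice were male C57BL/6 animals of 3 to 6 months that received 5 administrations of tamoxifen. The p300-ifKO mice carried a floxed Ep300 gene and Camk2a-creERT2, a tamoxifen-inducible Cre recombinase driven in excitatory forebrain neurons. The control mice are described as littermates without creERT2, yet their sample descriptions list the Cre driver. The labels do not say whether control mice carried floxed Ep300. Interneurons, glia and vessels keep Ep300 in this model, and all of them contribute to the RNA of a whole hippocampus.

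A bromodomain is a protein fold that binds acetylated lysine, mostly on histone tails, so that these proteins read the marks that acetyltransferases such as p300 and CBP write. Brd2 and Brd3 belong to the BET family, whose proteins carry a tandem pair of bromodomains and bring transcription factors and elongation machinery to acetylated chromatin. Brd1, Brpf1 and Brpf3 encode the scaffold proteins of the MOZ, MORF and HBO1 acetyltransferase complexes. Brd8 encodes a subunit of the TIP60 acetyltransferase complex, and Brd7 and Brd9 encode subunits of the PBAF and non-canonical BAF chromatin remodelers, respectively. The comparison asks whether readers of acetylation are expressed differently once a writer has been targeted in excitatory neurons.

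Promoter sequence is shown for 4 of the 8 genes. Brd2 and Brd9 had the highest levels and, in counts scaled for library depth alone, varied little between mice. Brd1 and Brd3 varied most on that scale. Once a smooth trend with exonic length and GC content was removed, Brd9 varied as much as Brd3 (SD of log2 values 0.195 and 0.193). Each window runs from 250 bases before to 50 bases after a RefSeq transcript start on GRCm38.p6 and is written 5′ to 3′ on the strand of the gene. Capitals mark the GC box (GGGCGG or CCGCCC), the ETS core (CCGGAAG or CTTCCGG) and the NRF1 site (GCGCA followed at once by TGCGC). The windows are chr17:34122558-34122857 (minus strand) for Brd2, chr13:73937561-73937860 (plus strand) for Brd9, chr15:88734170-88734469 (minus strand) for Brd1 and chr2:27475349-27475648 (minus strand) for Brd3. Where a gene had several windows, the one nearest the annotated gene start was taken. The Brd3 window lies 32264 bases inside the annotated gene start, because an annotated transcript of Brd3 begins farther upstream.
Brd2: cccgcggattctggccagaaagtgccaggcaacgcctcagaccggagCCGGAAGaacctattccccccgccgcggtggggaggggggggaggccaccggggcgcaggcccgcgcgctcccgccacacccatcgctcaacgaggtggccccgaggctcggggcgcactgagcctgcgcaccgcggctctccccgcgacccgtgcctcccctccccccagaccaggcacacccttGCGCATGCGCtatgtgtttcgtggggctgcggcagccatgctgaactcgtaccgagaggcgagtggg
Brd9: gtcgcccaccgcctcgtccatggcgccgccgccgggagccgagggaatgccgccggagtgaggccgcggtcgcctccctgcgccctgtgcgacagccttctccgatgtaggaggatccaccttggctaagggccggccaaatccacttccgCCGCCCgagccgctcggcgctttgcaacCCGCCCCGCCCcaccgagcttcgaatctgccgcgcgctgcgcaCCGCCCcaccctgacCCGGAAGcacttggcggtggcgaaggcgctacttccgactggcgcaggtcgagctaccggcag
Brd1: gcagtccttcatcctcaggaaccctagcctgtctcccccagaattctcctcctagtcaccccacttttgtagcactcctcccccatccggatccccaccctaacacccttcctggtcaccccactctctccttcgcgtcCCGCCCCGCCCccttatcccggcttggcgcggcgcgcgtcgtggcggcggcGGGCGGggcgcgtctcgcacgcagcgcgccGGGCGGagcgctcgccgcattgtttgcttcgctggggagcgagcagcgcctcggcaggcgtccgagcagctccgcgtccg
Brd3: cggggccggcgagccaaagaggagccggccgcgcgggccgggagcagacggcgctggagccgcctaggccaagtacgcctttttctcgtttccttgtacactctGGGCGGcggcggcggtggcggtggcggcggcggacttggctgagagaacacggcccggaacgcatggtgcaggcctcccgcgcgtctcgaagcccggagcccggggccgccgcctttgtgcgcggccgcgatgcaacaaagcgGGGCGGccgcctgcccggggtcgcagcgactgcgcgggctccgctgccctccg

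The promoter table held windows for 7 of the 8 genes. They were rich in CpG, with between 25 CpG in Brpf1 and 46 in Brd3 per 300 bases, against a median of 7 over all 32851 windows. Their GC content ran from 61.7% for Brpf1 to 78.7% for Brpf3, against a median of 52.7%. The motif shares below are over all windows and were not taken from windows of like GC content. A GC box was found in 6 of the 7 windows and in 35.7% of all windows, and the Brd2 window, where it was not found, held the NRF1 site, which 0.971% of all windows hold. The ETS core was found in Brd2 and Brd9 and in 8.86% of all windows. The cAMP response element (TGACGTCA) that recruits CREB, a partner of CBP and p300, was found in 0 of the 7 windows and in 1.79% of all windows. Its short core (TGACG or CGTCA) was likewise found in 0 of 7, against 20.8%. The E-box (CACGTG) and the TATA box (TATAAA or TTTATA) were found in 0 of 7, against 7.15% and 13.6%. Both strands were searched, the short core lies within the full element, and a match or its absence describes only the letters of these windows.

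Libraries held between 23151568 and 28433823 counts. Normalized counts (counts divided by a size factor for the depth of the library) of Ep300 itself were 1545, 1474 and 2334 in control littermates, and 478, 1350 and 912 in p300-ifKO replicates 1, 2 and 3. No p300-ifKO library overlapped the controls for Ep300, but replicate 2 lay close to them (log2 fold change −0.97, SE 0.33, DESeq2 adjusted p = 0.991). A count per gene does not resolve the recombined exon. The libraries also differed in a trend with gene length. Across 17054 genes, the Spearman rho between exonic length and the ratio of a library to the mean of the 6 was 0.21, 0.19 and 0.43 for controls, and −0.50, 0.44 and −0.23 for p300-ifKO libraries, so that longer genes tended to be low in p300-ifKO replicate 1. The tissue carried its markers in both groups. The summed normalized counts of 10 excitatory neuron markers ran from 177242 to 198450 in control and from 180063 to 201112 in p300-ifKO mice. Those of 9 microglia markers ran from 9155 to 10037 and from 10081 to 12334, with 7 of 9 higher and 0 called, beside 0.0061% of all genes. Those of 9 astrocyte markers ran from 132330 to 135473 and from 120731 to 128040, with 6 of 9 lower and 0 called. Those of 10 interneuron markers ran from 30903 to 34627 and from 29900 to 30223, with 7 of 10 lower and 0 called. The groups did not overlap in these 3 sums, whereas among the single markers 2 of 9, 1 of 9 and 1 of 10 separated, beside 6.64% of all genes. A sum weighs its most abundant markers most, and how often such sums separate in other gene lists was not tested. The sums of the oligodendrocyte, endothelium, choroid plexus and blood markers overlapped, with median log2 fold changes of 0.17, −0.15, 0.34 and −0.26 and 0 called. Without p300-ifKO replicate 2, where 2.93% of all genes passed in DESeq2, 7 markers did: C1qa (0.70) and C1qb (0.68) of microglia, Neurod2 (0.42) and Grin2b (−0.64) of excitatory neurons, Pvalb (0.63) and Npy (0.57) of interneurons and Cldn5 (0.51) of endothelium, named after their values were seen. No listed marker was at 0 in all libraries. The part of these shifts in the values below was not tested, and in bulk tissue fewer cells of a type cannot be told apart from less RNA per cell.

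All 8 genes were expressed in every library. On GRCm38 the BET genes lie at chr17:34112023-34122634 (Brd2) and chr2:27445579-27507662 (Brd3), both on the minus strand. The scaffold genes lie at chr15:88687034-88734233 (Brd1, minus strand), chr6:113307137-113324860 (Brpf1, plus strand) and chr17:28801090-28839949 (Brpf3, plus strand). Brd7 lies at chr8:88331039-88362194 (minus strand), Brd8 at chr18:34598615-34624601 (minus strand) and Brd9 at chr13:73937811-73960895 (plus strand). Counts cover all annotated exons of a gene. Levels between genes were compared as normalized counts per kilobase of exon, over the 6 libraries. Brd2 was the most abundant at 695 ± 27.2 (SD, n = 6), followed by Brd9 at 630.0 ± 44.2 (SD, n = 6). Their levels were above those of 90.2% and 88.9% of the 17070 genes with a mean normalized count above 10. Brd7 came next at 282 ± 20.0 (SD, n = 6) and Brd3, the other BET gene, at 186 ± 33.1 (SD, n = 6). Brpf1, Brd8 and Brd1 lay together at 167 ± 10.6, 161 ± 7.91 and 161 ± 24.5 (SD, n = 6), and Brpf3 was the least abundant at 120.0 ± 15.7 (SD, n = 6). Even Brpf3 was above 53.8% of those genes. In TPM, a scale that also corrects for length, Brd2 had 105 ± 7.70 and Brpf3 18.2 ± 3.25 (SD, n = 6), and Brd8 and Brd1 were level at 24.3 ± 2.45 and 24.4 ± 4.80 (SD, n = 6).

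**Figure D1:**
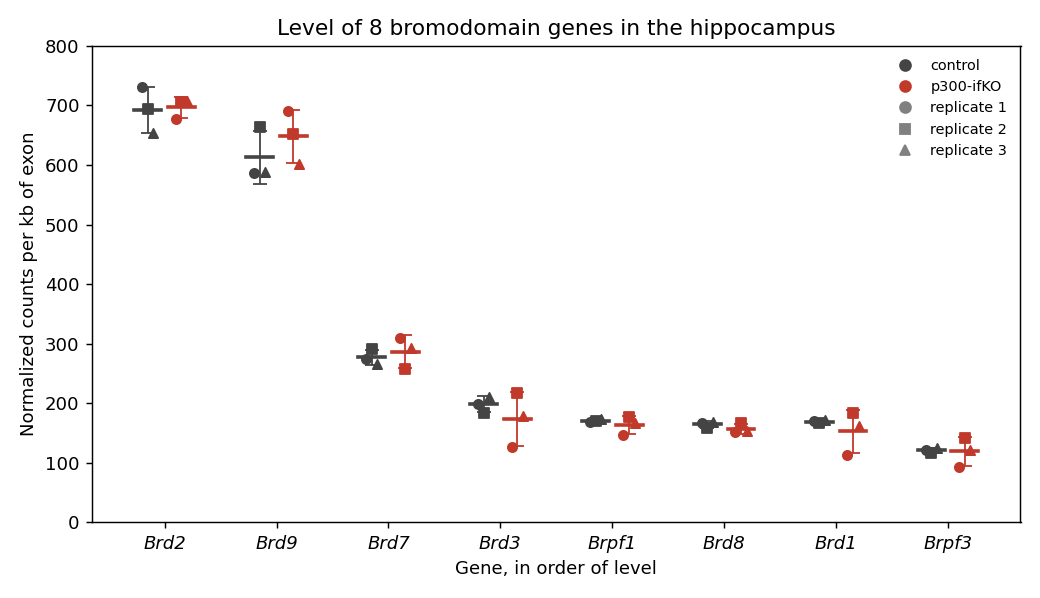
Level of each gene in each library, in normalized counts per kilobase of exon (y axis, from 0); points are mice, with a marker shape per replicate, horizontal bars are group means and error bars are SD over 3 mice. Brd2 and Brd9 lie at 586 or above in every library, whereas the other 6 genes lie at 310 or below, and the control and p300-ifKO points of each gene overlap.

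Neighbours in this order were compared within libraries by an exact sign-flip permutation test over the 6 libraries (two-sided, smallest possible p 0.0312), adjusted over the 7 neighbouring pairs. Brd9 was higher than Brd7 in 6 of 6 libraries, by 2.24-fold, Brd7 was higher than Brd3 in 6 of 6, by 1.54-fold, and Brd1 was higher than Brpf3 in 6 of 6, by 1.34-fold. Each of these steps had the smallest possible exact p, 0.0312, and an adjusted p of 0.0728, so that 0 of 7 passed after adjustment. The number of libraries limits this p whatever the size of a step, and the same libraries set the order that was tested. Brd2 was higher than Brd9 in 5 of 6 libraries, by 1.10-fold (exact p = 0.0625, adjusted p = 0.109). Brd3, Brpf1, Brd8 and Brd1 could not be ordered: the 3 steps between them had ratios of 1.01 to 1.10 and exact p values from 0.125 to 1. Brd8 was above Brd1 in the mean but in only 1 of 6 libraries, p300-ifKO replicate 1. The order also depended on the length used. With the longest annotated transcript in place of all exons, Brd8 moved up to the fourth place, since its exons span 10633 bases and its longest transcript 4468, and 4 of the 8 genes kept their place.

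None of the 8 bromodomain genes passed the test between p300-ifKO and control mice. DESeq2 called 0 of the 8 at an adjusted p under 0.05, against 2 of all 32773 genes tested (0.0061%), which were Esr1 (102 ± 12.5 and 3167 ± 937 normalized counts in control and p300-ifKO mice, SD, n = 3) and Arsi (30.6 ± 7.46 and 181 ± 20.1, SD, n = 3). The paper attributes the rise of both to the Camk2a-creERT2 transgene, since creERT2 holds Esr1 exons and Arsi lies on the DNA used to build it. An unadjusted p under 0.05 in DESeq2 was found for 0 of the 8, against 432 of all genes (1.32%). The edgeR quasi-likelihood test and limma-voom also called 0 of the 8, against 0.0117% of all genes in each. Of the 8 genes, 3 were higher and 5 lower, with log2 fold changes from −0.19 for Brd3 to 0.080 for Brd9 and a median of −0.045, beside −0.046 over all genes tested and −0.0050 over those with a mean normalized count above 10. For 0 of the 8 did the p300-ifKO mice lie entirely above or below the controls. Of all genes tested, 6.64% separated in this way, a share too small to set 0 of 8 apart. The values of each gene follow by function.

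Brd2 had 5720, 5434 and 5109 normalized counts in controls, with 5298, 5526 and 5542 in p300-ifKO animals. The p300-ifKO values fell inside the range of the controls. Group means were 5421 ± 306 and 5456 ± 137 (SD, n = 3 each), a log2 fold change of 0.0090 (SE 0.11, DESeq2 adjusted p = 0.997). The 95% interval ran from −12.7% to 16.1%, the narrowest of the 8 genes on the log2 scale. Of the exonic bases of Brd2, 9.78% also lie in exons of genes on the opposite strand, H2-DMa and CR974462.3, so that some reads cannot be assigned without strand. Its paralogue Brd3 had 1459, 1349 and 1550 normalized counts in controls, with 924, 1594 and 1305 in p300-ifKO animals. Its lowest and its highest values were both p300-ifKO, in replicates 1 and 2, and on both sides of the control range. Group means were 1453 ± 101 and 1274 ± 336 (SD, n = 3 each), a log2 fold change of −0.19 (SE 0.21, DESeq2 adjusted p = 0.991), and the 95% interval ran from −33.8% to 16.3%. Per kilobase, the ratio of Brd2 to Brd3 was 3.68, 3.78 and 3.09 in controls, against 5.38, 3.25 and 3.98 in p300-ifKO animals. The ratio overlapped between groups (exact permutation test, two-sided, p = 0.4; adjusted p = 0.9 over 5 ratios between paralogues; the smallest p of 3 against 3 is 0.1).

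Among the scaffold genes of the MOZ, MORF and HBO1 complexes, Brd1 (also called Brpf2) had 1433, 1395 and 1435 normalized counts in controls, with 954, 1549 and 1365 in p300-ifKO animals. The controls lay within a narrow band, with a mean of 1421 ± 22.3 (SD, n = 3), while the p300-ifKO mice spread around it, with 1289 ± 305 (SD, n = 3). For Brd1 the log2 fold change was −0.14 (SE 0.19, DESeq2 adjusted p = 0.991), with a 95% interval from −30.1% to 17.8%. Brpf1 had 1136, 1151 and 1181 normalized counts in controls, with 994, 1193 and 1125 in p300-ifKO animals. Its means of 1156 ± 22.5 and 1104 ± 101 (SD, n = 3) gave a log2 fold change of −0.066 (SE 0.13, DESeq2 adjusted p = 0.991), with a 95% interval from −19.6% to 13.5%. Brpf3 had 1060, 1014 and 1071 normalized counts in controls, with 810, 1233 and 1048 in p300-ifKO animals. The third p300-ifKO value lay inside the control range and the others lay below and above it, with a log2 fold change of −0.024 (SE 0.18, DESeq2 adjusted p = 0.997) and a 95% interval from −22.8% to 25.3%. The ratio of Brd1 to Brpf3 per kilobase was 1.39, 1.42 and 1.38 in controls, against 1.21, 1.29 and 1.34 in p300-ifKO animals, so that the groups did not overlap for this 1 of the 5 ratios. Its exact permutation p was 0.1, the smallest that 3 against 3 allows, and 0.5 after adjustment. Brd1 to Brpf1 was 0.992 ± 0.0221 in controls and 0.933 ± 0.142 in p300-ifKO animals, and Brpf1 to Brpf3 was 1.41 ± 0.0406 and 1.39 ± 0.166 (SD, n = 3; exact permutation p = 0.8 and 0.9). Of the exonic bases of Brpf1 and Brpf3, 3.76% and 4.52% also lie in exons on the opposite strand.

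Brd8, the TIP60 complex gene, had 1779, 1677 and 1801 normalized counts in controls, with 1602, 1775 and 1637 in p300-ifKO animals. Replicates 1 and 3 of p300-ifKO lay below the control range and replicate 2 inside it, and the means of 1752 ± 66.3 and 1671 ± 91.6 (SD, n = 3) gave a log2 fold change of −0.068 (SE 0.11, DESeq2 adjusted p = 0.991). Its 95% interval ran from −18.1% to 11.2%, and its fold change was 0.11 with length and GC offsets. Brd7, a PBAF subunit gene, had 1442, 1527 and 1388 normalized counts in controls, with 1627, 1347 and 1538 in p300-ifKO animals. Here p300-ifKO replicate 1 was the highest library and replicate 2 the lowest, the reverse of Brd3, Brd1, Brpf1 and Brpf3. The log2 fold change of Brd7 was 0.050 (SE 0.13, adjusted p = 0.991 in DESeq2), with a 95% interval from −13.2% to 23.6%. Brd9, the subunit gene of non-canonical BAF, had 4072, 4614 and 4092 normalized counts in controls, with 4799, 4530 and 4176 in p300-ifKO animals. The groups shared most of their range, with means of 4259 ± 308 and 4501 ± 312 (SD, n = 3). The log2 fold change of Brd9 was 0.080 (SE 0.12, adjusted p = 0.991 in DESeq2), and the 95% interval ran from −10.4% to 24.6%. The ratio of Brd9 to Brd7 per kilobase was 2.21 ± 0.0757 in controls and 2.27 ± 0.248 in p300-ifKO animals (SD, n = 3, exact permutation p = 0.8). Over the 8 genes, the intervals reached no lower than −33.8% and no higher than 25.3%, so that a 2-fold change in bulk RNA lay outside each of them. With length and GC offsets the upper bound was higher, at 38.5% for Brd9 and 33.3% for Brd7, and the lowest bound was −24.8% for Brd3.

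**Figure D2:**
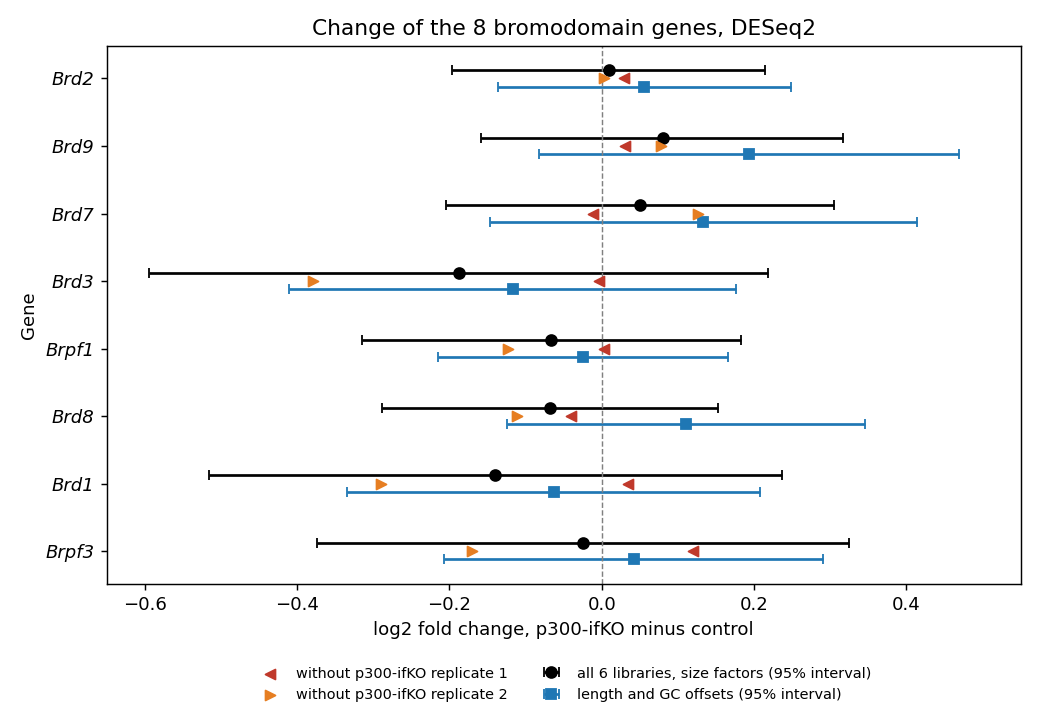
Log2 fold change of p300-ifKO against control mice in DESeq2 (x axis) for each gene (y axis), with 95% intervals for the fit on all 6 libraries and for the fit with length and GC offsets, and points for the fits without p300-ifKO replicate 1 or 2. Each interval includes 0, from the fit values of −0.19 for Brd3 to 0.080 for Brd9, and the points for Brd1 and Brd3 lie far apart.

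For each of the 8 genes the difference between the group means was smaller than the SD among the p300-ifKO mice. Brd1, Brd3, Brpf1 and Brpf3 were each lowest in p300-ifKO replicate 1 and highest in p300-ifKO replicate 2. Over the 17070 genes whose mean normalized count exceeded 10, 37.8% were lowest in that first library, 16.1% were highest in that second one and 12.3% were both. In p300-ifKO replicate 1, Brd3 stood at 63.6% of the control mean, Brd1 at 67.1%, Brpf3 at 77.2% and Brpf1 at 85.9%. In the same library Brd8 stood at 91.5% and Brd2 at 97.7%, whereas Brd7 and Brd9 stood at 112% and 113%. In p300-ifKO replicate 2 the first 4 genes ran from 103% for Brpf1 to 118% for Brpf3, and Brd7 was at 92.7%. The coefficient of variation over the 6 libraries was 17.8% for Brd3, 15.2% for Brd1 and 13.1% for Brpf3, and between 3.91% and 7.09% for the other 5 genes. As a description over 6 libraries that share these trends, log2 values correlated with a Pearson r of 0.94 to 0.98 among the 4 genes, and of −0.82 to −0.91 between each of them and Brd7. The 4 genes were grouped, and Brd7 was set against them, by their values in these same libraries. Correlations of these signs therefore follow in part from that choice and are no separate evidence of a shared pattern. Brd8 followed the same pattern, with an r of 0.75 to 0.87 with the 4 genes and of −0.94 with Brd7.

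**Figure D3:**
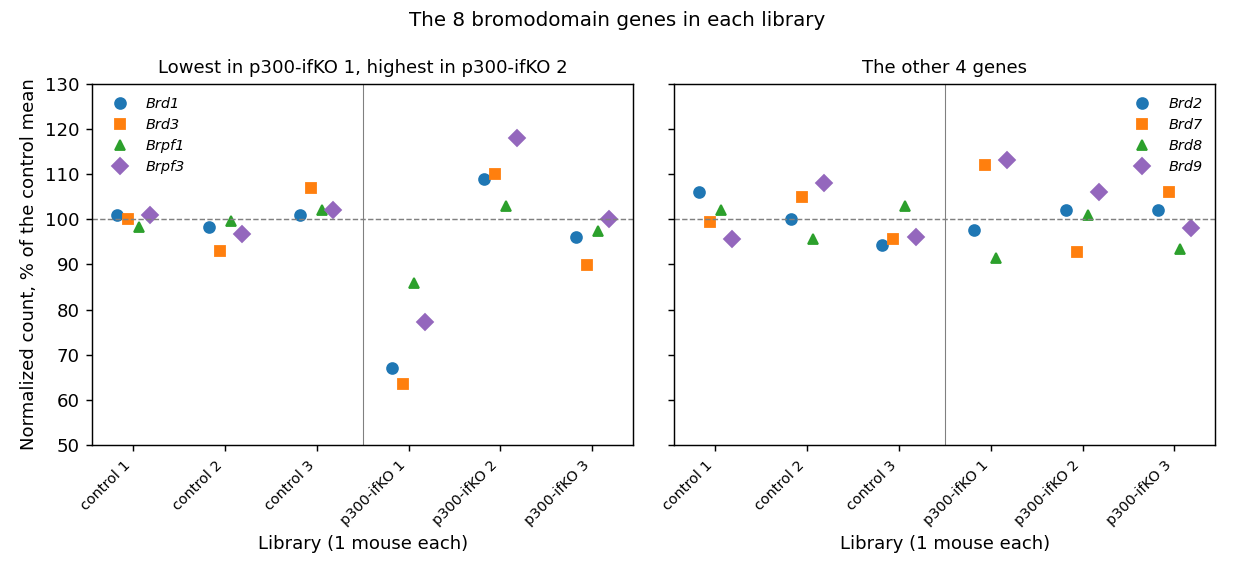
Normalized count of each gene in each library as a percentage of the control mean (y axis), with 1 point per gene and library; the left panel holds Brd1, Brd3, Brpf1 and Brpf3, the right panel Brd2, Brd7, Brd8 and Brd9. The left genes lie between 63.6% and 85.9% in p300-ifKO replicate 1 and above 100% in p300-ifKO replicate 2, whereas the right genes stay between 91.5% and 113% in all 6 libraries.

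Removing the smooth trend with exonic length and GC content narrowed the spread of these 4 genes and widened that of the other 4. The SD of log2 values over the 6 libraries went from 0.29 to 0.19 for Brd3, from 0.25 to 0.16 for Brd1, from 0.20 to 0.12 for Brpf3 and from 0.095 to 0.050 for Brpf1. It went from 0.057 to 0.087 for Brd2, from 0.10 to 0.18 for Brd7, from 0.071 to 0.13 for Brd8 and from 0.10 to 0.20 for Brd9. The exons of the first 4 genes span 6779 to 8654 bases and those of the other 4 span 5244 to 10633. After this removal p300-ifKO replicate 1 still held the lowest value of Brd1 (1083 normalized counts), Brd3 (1042), Brpf1 (1064) and Brpf3 (905) and the highest of Brd7 (1809) and Brd9 (5565). For Brd8 it turned from the lowest library to the highest (2021), and for Brd2 it became the highest (5722), where control replicate 1 had been.

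The fold changes moved with these libraries. Leaving out p300-ifKO replicate 1 brought Brd3 to −0.0040 and Brd1 to 0.035, with 0 of the 8 genes called against 0.0062% of all genes. Leaving out p300-ifKO replicate 2 brought Brd3 to −0.38 and Brd1 to −0.29 (adjusted p = 0.115 and 0.219 in DESeq2), with 0 of the 8 called against 2.93% of all genes. Brpf3 was 0.12 without replicate 1 and −0.17 without replicate 2, Brpf1 0.0030 and −0.12, and Brd7 −0.011 and 0.13, in the same order. Brd2, Brd8 and Brd9 stayed between −0.11 and 0.078 in both fits. With length and GC offsets the 8 fold changes ran from −0.12 for Brd3 to 0.19 for Brd9, and 0 of 8 passed, beside 0.0117% of all genes. With 1 surrogate variable, an unlabelled factor estimated from the counts, they ran from −0.050 to 0.16, and 0 of 8 passed, beside 0.00915% of all genes.

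The gene whose values over the 6 libraries were most like those of each bromodomain gene was found by Pearson correlation of log2 normalized counts among 12245 genes with a mean of 100 or more. It was Klhl20 for Brd1 (r = 0.9991), Zfp383 for Brd3 (0.9990), Wapl for Brpf1 (0.9997) and Ehbp1 for Brpf3 (0.9983). For the others it was Tdp2 for Brd2 (r = 0.988), Sdf2l1 for Brd7 (0.9959), Pfkp for Brd8 (0.998) and Ap5z1 for Brd9 (0.9989). With 6 libraries such values were common for some genes: 1678 genes had an r above 0.95 with Brpf1, 1546 with Brd3 and 1164 with Brd1. Fewer had one with Brpf3 (265), Brd7 (173), Brd8 (72), Brd2 (9) and Brd9 (9).

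The wider set of bromodomain genes was read as a list of 31, without Ep300. Of these, 7 were higher and 24 lower in p300-ifKO mice, 0 passed in either direction in DESeq2 beside 0.0061% of all genes, and the median log2 fold change was −0.18, beside −0.0050 over genes with a mean normalized count above 10. The lowest were Atad2b, an ATPase gene, at −0.57 (SE 0.34), with 645 ± 200 (SD, n = 3) normalized counts in controls, against 434 ± 192 (SD, n = 3) in p300-ifKO animals, and Kmt2a, a histone methyltransferase gene, at −0.42 (SE 0.29). The highest of those with a mean of 50 or more were Trim28, a corepressor gene, at 0.17 (SE 0.16), and Kat2a, the acetyltransferase gene of the SAGA and ATAC complexes, at 0.16 (SE 0.14). The median moved to 0.026 with 1 surrogate variable and to −0.0080 with length and GC offsets. Without p300-ifKO replicate 2, 4 of the 31 passed in DESeq2, each lower, beside 1.39% of all genes: Atad2b (−0.89), Kmt2a (−0.73) and, chosen after their values were seen, Ash1l (−0.70) and Baz2a (−0.64). Crebbp, which encodes CBP, had a log2 fold change of −0.055 (SE 0.11), which was 0.11 with length and GC offsets, with 2084 ± 98.2 (SD, n = 3) normalized counts in controls, against 2006 ± 48.9 (SD, n = 3) in p300-ifKO animals.

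**Figure D4:**
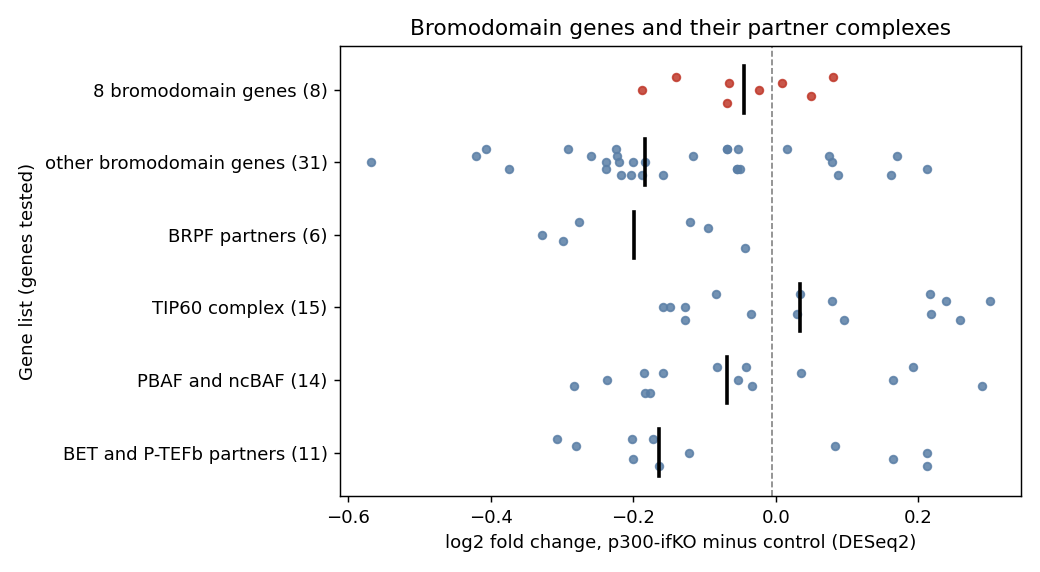
Log2 fold change of p300-ifKO against control mice in DESeq2 (x axis) for the genes of each list (y axis, number tested in brackets); points are genes, black bars are list medians and the dashed line is the median of all genes with a mean normalized count above 10. The medians run from −0.20 for the BRPF partners to 0.034 for the TIP60 complex, and no gene shown passed the threshold.

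The partner complexes of the 8 proteins were examined as 4 further lists. Of the 6 partners of the BRPF scaffolds, 6 were lower and 0 passed, with a median of −0.20, which was −0.0030 with 1 surrogate variable and −0.10 with length and GC offsets. Their acetyltransferase genes Kat6a, Kat6b and Kat7 were at −0.33 (SE 0.31), −0.30 (SE 0.26) and −0.043 (SE 0.10), and Ing5, a reader of methylated histone tails, at −0.095 (SE 0.17). For the 15 genes of the TIP60 complex, the complex of Brd8, the median was 0.034, with 9 higher and 6 lower, from −0.16 (SE 0.16) for Ep400, its remodeling ATPase gene, and −0.15 (SE 0.19) for Trrap, a scaffold gene, to 0.26 (SE 0.20) for Yeats4 and 0.30 (SE 0.19) for Dmap1. For the 14 genes of PBAF and non-canonical BAF, the complexes of Brd7 and Brd9, the median was −0.068, with 4 higher and 10 lower. Bicral and Bicra, which encode alternative subunits of non-canonical BAF, were the lowest at −0.28 (SE 0.21) and −0.24 (SE 0.19), and the core subunit gene Smarcb1 and the neuronal subunit gene Actl6b the highest at 0.29 (SE 0.19) and 0.19 (SE 0.17). For the 11 partners of the BET proteins, which center on the elongation factor P-TEFb, the median was −0.16, with 4 higher and 7 lower, and it was 0.042 both with 1 surrogate variable and with length and GC offsets. The elongation factor genes Aff1 and Aff4 were at −0.31 (SE 0.27) and −0.28 (SE 0.25), and the kinase gene Cdk9 and the hydroxylase gene Jmjd6 both at 0.21 (SE 0.17 and 0.15). In DESeq2, 0 genes of these lists passed and 0 had an unadjusted p under 0.05, beside 1.32% of all genes. Without p300-ifKO replicate 2, Kat6b (−0.61) and Bicral (−0.49) passed, beside 2.93% of all genes.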

How the data were processed

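Raw counts of reads per gene were deposited by the authors in 1 table. Per the methods of the study and its processing notes, single-end reads of 50 bases were trimmed with Trim Galore (version 0.6.4), aligned with STAR (version 2.6.1) to GRCm38, filtered on mapping quality and counted with Rsubread on the exons of the Ensembl annotation. Whether counting used strand is not stated in the sources used here. Symbols, coordinates and overlaps came from GENCODE M21 (99.57% of identifiers matched). Of the 50-base stretches of the 8 genes, between 0% and 7.81% also occur in transcripts of another gene, most for Brd2.

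The title of each sample gave its group and number. DESeq2 (version 1.42.0, R 4.3.3), the tool the study names, was used with a two-sided Wald test, median of ratios size factors, no covariate and Benjamini-Hochberg adjustment over all genes with a threshold of 0.05. Intervals are 95% Wald intervals of the log2 fold change. Alternatives were edgeR (version 4.0.16), limma-voom (limma version 3.58.1), other factors, filters and thresholds, a replicate block, leaving out each library, 1 surrogate variable (sva version 3.50.0) and smooth length and GC offsets (mgcv version 1.9.3, mean above 10). The main DESeq2, edgeR and limma-voom fits, the replicate block and the offsets were tested on simulated data. The other alternatives were not. The simulated counts held no trend with length or GC content and no replicate effect. They could therefore not show whether the offsets or the block remove such differences. The 8 genes, the lists and these tests were chosen with earlier results of these data known, and the ratios between paralogues and the promoter motifs after the values were seen. Named beyond the 8 genes are Ep300, Crebbp, every gene called with all 6 libraries, the 2 highest and 2 lowest of the other bromodomain genes and of each partner list with a mean of 50 or more, and the most correlated gene of each of the 8.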

Additional observations from a re-analysis of the deposited data

How the results depend on the processing

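Over 14 alternatives in which the fold changes of the 8 genes could move, 112 values in all, 99 kept their direction and 13 did not. In these and in 3 that change only the calls, 0 passed the threshold in DESeq2, edgeR or limma. The cause of these changes was not tested. The count of genes called was 2, with 3 under 1 surrogate variable and 4 with a replicate block in DESeq2. No label says whether equal replicate numbers mark paired mice. Deviations from the group means correlated by 0.27, −0.28 and 0.13 between equal numbers. These values cannot decide pairing, because the libraries also differed in a trend with gene length. The block changed no call among the 8 genes. Leaving out one replicate at a time, from 2 to 938 genes were called, the highest without p300-ifKO replicate 2, and from 0 to 13 list genes. In these fits Ep300 ranged from −1.36 to −0.66, past the threshold when p300-ifKO replicate 2 was left out (DESeq2 adjusted p = 0.000356), and it was −0.49 with 1 surrogate variable (adjusted p = 0.00205 in DESeq2). Fold changes that changed sign when one library was left out ranged from −0.29 to 0.035 for Brd1, −0.029 to 0.051 for Brd2, −0.011 to 0.13 for Brd7, −0.12 to 0.0030 for Brpf1 and −0.17 to 0.12 for Brpf3. With 1 surrogate variable Brd1 was 0.063, Brd3 0.052, Brd7 −0.050, Brpf1 0.021 and Brpf3 0.16, and with length and GC offsets Brd8 was 0.11 and Brpf3 0.042. In the order of levels, 4 of 8 genes kept their place with the longest transcript length, and from 6 to 8 when one library was left out. With 3 mice per group, the 95% intervals of the 8 genes give the precision of these values.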
